A study of Mus musculus with 23 samples.

Results

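The 26S proteasome subunit genes are described here in mouse brain RNA sequencing libraries. They were chosen by name and level: protein-coding symbols that begin with Psma, Psmb, Psmc or Psmd and end in a number, with a mean normalised read count of at least 10, leaving out the immune subunits Psmb8, Psmb9, Psmb10 and Psmb11. The rule gave 34 genes of the 18848 in the table: 7 of the alpha ring, 7 of the beta ring, 6 ATPases and 11 other subunits of the 19S particle, and 3 chaperones that help assemble it. In all, 38 symbols in the table matched the pattern. Of these, 3 were excluded by name and 1, Psma8, lay below the minimum at a mean of 6.39, while the lowest gene inside it, Psmd10, had a mean of 283.5. Every one of the 34 genes was among the 17256 genes tested.

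The proteasome is the protease that degrades proteins tagged with ubiquitin in the cytosol and nucleus. Its barrel, the 20S core, stacks outer rings of alpha subunits, which gate the entry, on inner rings of beta subunits, of which Psmb5, Psmb6 and Psmb7 carry the standard active sites. The 19S particle caps the barrel: it binds ubiquitin chains, removes them and unfolds the substrate with a ring of ATPases encoded by Psmc1 to Psmc6. In neurons the proteasome turns over synaptic proteins and takes part in activity-dependent plasticity.

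RNA came from brain, with no region named in the labels. The mice were males of the C57BL/6J strain, at postnatal day 17. They were wild-type (WT) or heterozygous (HT) for Grin2b, per the series title with the C456Y mutation of this NMDA receptor subunit gene, and were given vehicle or DCS. The labels do not spell out DCS, which commonly stands for D-cycloserine, a drug that partially activates the NMDA receptor where glycine binds. Each group had 6 libraries, except WT DCS, which had 5. The labels do not state that each library is a mouse of its own, so the p-values reflect spread between samples that may be no more than technical. They also give no dose or time of treatment.

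Normalised totals per library lay between 32290000 and 33550000 reads. Depth before scaling, estimated roughly from the steps between low values, ran from 25610000 reads in HT DCS replicate 5 to 37510000 in WT vehicle replicate 4. Grin2b itself was read at 14618 to 21725 normalised counts, which sum both alleles and so do not check the genotype. Markers of neurons, astrocytes, oligodendrocytes and the other cell types looked for were present in every group, and 0 of the markers were at 0 in every library. HT DCS replicates 5 and 6 stood apart in their hindbrain markers, whose summed level was 606.1 and 756 there against 1064 to 1814 in the other 21 libraries. In such bulk samples, fewer cells of a type and less RNA per cell cannot be told apart.

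Together the 34 genes took 0.264% of the normalised reads. In WT mice their summed level was 87900 ± 826 (SD, n = 6) with vehicle and 87220 ± 1216 (n = 5) with DCS. In HT mice it was 86640 ± 2556 (n = 6) with vehicle and 86350 ± 1379 (n = 6) with DCS. The ranges of the 4 groups overlapped, from 84253 in HT DCS replicate 5 to 91042 in HT vehicle replicate 6. These means differed by less than the SD of the HT vehicle group, which is the largest of the 4 and holds the highest library. The means of WT vehicle and HT DCS lay further apart than the SD of either of these groups. No test was run on the summed level.

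To compare genes with each other, levels were divided by transcript length. The length is that of the longest coding transcript, principal isoforms first, so the order of genes depends on this choice. The median subunit gene had 1800 normalised reads per kilobase, against 192.8 for all genes with a length. Levels per kilobase spanned 15.07-fold among the 34 genes. The catalytic subunits stood near the top of the beta ring: Psmb6, the caspase-like site, at 2987 per kilobase, Psmb7, the trypsin-like site, at 2929 and Psmb5, the chymotrypsin-like site, at 2543. Psmb1, which has no active site, was the lowest of that ring at 1796. Its transcript was the longest of the ring, at 1758 bases. Before division by length, its mean of 3157 lay above Psmb6 (2384) and Psmb5 (2286) and below Psmb7 (3398). The alpha ring ran from Psma3 at 772 per kilobase to Psma7 at 2894, a 3.75-fold range. Their lengths were 2846 and 914 bases. Before division by length the ring ran from Psma5 at 1773 to Psma7 at 2645, with Psma3 at 2196. Psma3 also shares sequence with a pseudogene, described below, which makes its level uncertain. Among the ATPases, Psmc6 was lowest at 975 and Psmc5 highest at 2877. Psmc6 had the longest ATPase transcript, 2234 bases, and was also the lowest before division, at 2178. The other 19S subunits ran from Psmd11 at 726 to Psmd2, a large scaffold subunit of the base, at 2405. The Psmd11 transcript has 2848 bases. Before division its mean of 2068 lay above those of Psmd6 (1810) and Psmd12 (1900). Psmd11 also has a near copy, described below. Psmd4, the ubiquitin receptor, had 2062 and Psmd14, the deubiquitinase that cuts the chain off the substrate, 1354. The assembly chaperones were the lowest role in level, with Psmd10 at 198, Psmd5 at 315 and Psmd9 at 317 per kilobase, below every structural subunit.

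**Figure D1:**
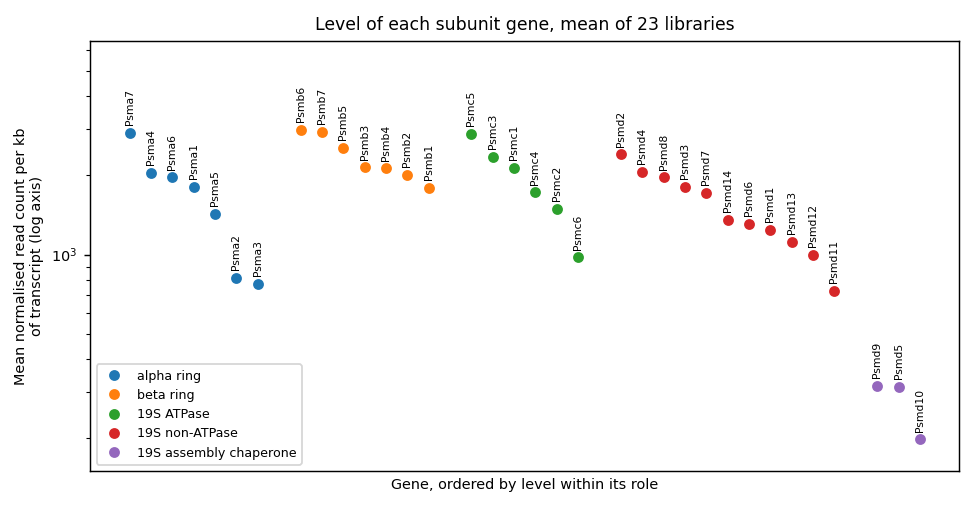
Mean normalised read count per kilobase of transcript (log axis) of each of the 34 subunit genes over 23 libraries, coloured by role and ordered by level within it. The 3 assembly chaperones lie between 198 and 317, below every structural subunit.

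The subunit genes varied little from library to library. The SD of log2 values around the group means had a median of 0.054 over the 34 genes, against 0.12 over all genes tested, and the median coefficient of variation was 3.57% against 7.99%. The highest library was 1.17 times the lowest for the median member. The subunit genes lie well above the typical level (a median mean of 2381 normalised reads against 572.6), so these medians do not compare genes of like level. The steadiest were the scaffold subunits Psmd2 (SD 0.029) and Psmd1 (0.029) and the alpha subunit Psma5 (0.035). Psmd2 kept between 6884 and 7375 normalised reads in all 23 libraries. The most variable were Psmd9 (0.15), Psmd5 (0.14) and Psmd13 (0.094). Psmd9, which binds ATPases during assembly, ran from 679.8 in WT vehicle replicate 3 to 971.6 in WT DCS replicate 4, and the ranges of the 4 groups overlapped.

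**Figure D2:**
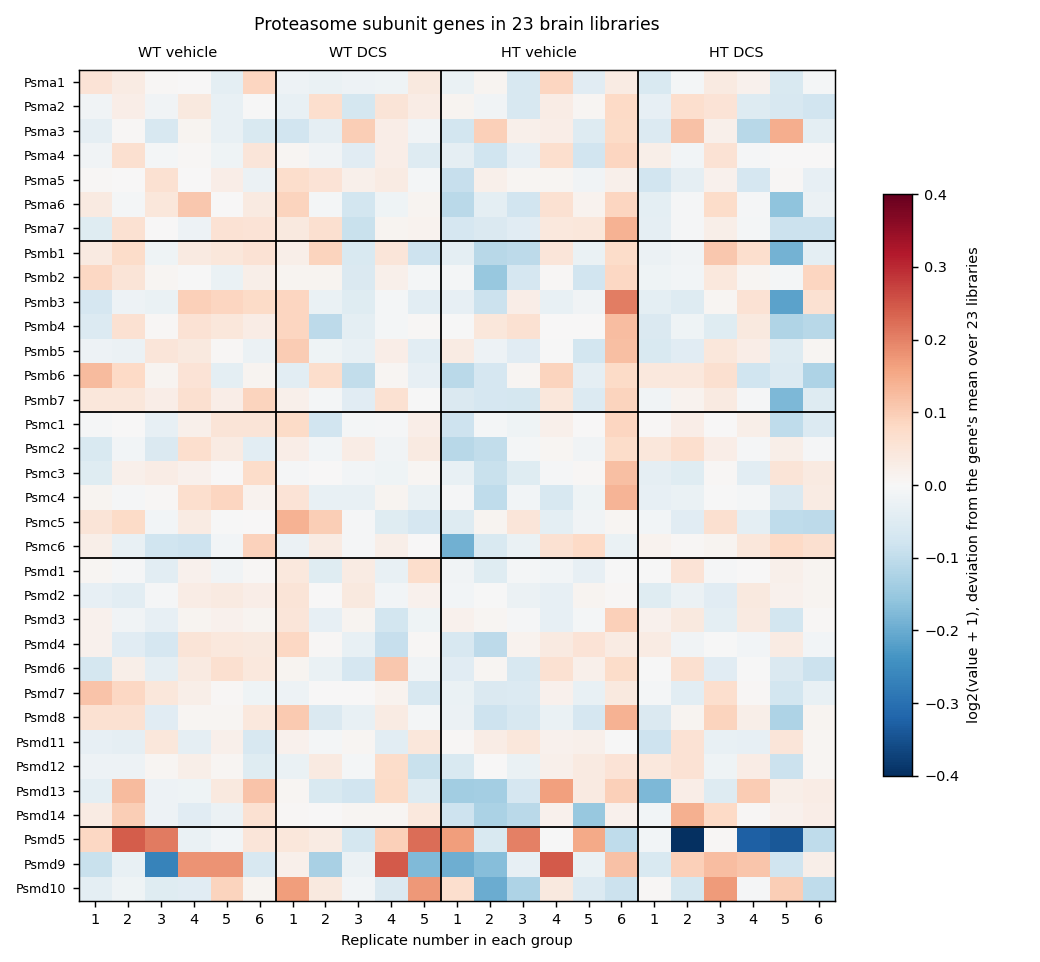
Deviation of log2(value + 1) from each gene's mean over 23 libraries, for the 34 subunit genes (rows, by role) and the libraries of each group (columns). Most cells are pale, and the strongest blue cells are Psmd5 in HT DCS replicates 2, 4 and 5.

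RefSeq promoter sequence was read for 28 of the 34 genes, as the 250 bases before the transcript start on GRCm38.p6, in 30 windows. Psmb1, Psmb2, Psmb7, Psmc3, Psmd3 and Psmd7 were not matched. Windows of 5 genes are shown because the expression results turn on them: Psma7 and Psmd8 varied most closely with the rest of the genes along with Psmb7, Psmd2 was the steadiest, and Psmd5 or Psmd14 had the smallest p in 5 of the 6 comparisons below. They lie at chr2:180042465-180042714 on the minus strand (Psma7), chr7:29180674-29180923 minus (Psmd8), chr16:20651402-20651651 plus (Psmd2), chr2:34870963-34871212 minus (Psmd5) and chr2:61711444-61711693 plus (Psmd14). Each is written 5′ to 3′ in the sense of the gene, ending at the base before the start that RefSeq gives. The GENCODE start of Psmd5, at 34874968, lies further upstream, so its window falls within the gene span given below, and those of Psma7 (180042433) and Psmd8 (29180701) also differ from the RefSeq starts. Capitals mark a match on either strand to any of 4 motifs: CCAAT (the CCAAT box), CCGGAAG (an ETS factor site), TGANNNNGC (the core of the antioxidant response element, the kind of site that Nfe2l1 binds) and GGGCGG (the GC box). Matches can overlap and then share a run of capitals.
Psma7: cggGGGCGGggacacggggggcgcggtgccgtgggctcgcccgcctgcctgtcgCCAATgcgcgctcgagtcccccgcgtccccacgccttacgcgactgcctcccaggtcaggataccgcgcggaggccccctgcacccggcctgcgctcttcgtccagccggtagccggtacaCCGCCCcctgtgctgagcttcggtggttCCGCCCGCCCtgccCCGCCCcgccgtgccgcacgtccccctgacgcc
Psmd8: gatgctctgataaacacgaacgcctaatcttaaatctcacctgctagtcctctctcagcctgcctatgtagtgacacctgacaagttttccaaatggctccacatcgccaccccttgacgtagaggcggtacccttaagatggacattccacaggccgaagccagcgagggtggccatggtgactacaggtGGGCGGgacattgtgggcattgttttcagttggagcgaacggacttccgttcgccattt
Psmd2: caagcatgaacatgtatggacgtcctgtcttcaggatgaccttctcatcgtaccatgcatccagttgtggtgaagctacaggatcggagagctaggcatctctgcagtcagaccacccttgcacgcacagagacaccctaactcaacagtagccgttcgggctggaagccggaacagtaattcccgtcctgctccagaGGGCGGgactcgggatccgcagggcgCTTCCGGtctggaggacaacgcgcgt
Psmd5: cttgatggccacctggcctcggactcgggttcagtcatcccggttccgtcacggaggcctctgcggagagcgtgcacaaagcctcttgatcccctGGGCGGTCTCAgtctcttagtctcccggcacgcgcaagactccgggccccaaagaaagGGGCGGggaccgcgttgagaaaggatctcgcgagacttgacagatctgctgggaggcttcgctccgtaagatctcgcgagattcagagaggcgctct
Psmd14: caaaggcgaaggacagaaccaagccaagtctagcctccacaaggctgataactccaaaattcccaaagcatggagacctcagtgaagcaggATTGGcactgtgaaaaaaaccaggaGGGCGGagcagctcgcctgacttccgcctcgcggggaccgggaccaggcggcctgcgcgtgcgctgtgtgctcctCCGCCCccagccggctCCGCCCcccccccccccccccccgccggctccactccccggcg

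Psma7 held 1 CCAAT and 5 GC boxes, Psmd8 1 GC box, and Psmd2 1 ETS match at 26 to 20 bases before the start and 1 GC box. Psmd5 held 2 GC boxes, the first of which overlaps the antioxidant core, and Psmd14 held 1 CCAAT and 3 GC boxes. Of the 28 genes, 9 (32.1%) had the ETS motif in a window, against 6.91% of all 32851 RefSeq windows of the same length. The GC box was found in 17 of 28 (60.7%) against 32.7%, the antioxidant core in 11 (39.3%) against 35.2%, and CCAAT in 11 (39.3%) against 33.8%. A gene with a match in either of its windows was counted as holding the motif, and 2 genes had 2 windows. The median GC content was 54.6% in the windows of the subunit genes and 52.4% in all windows. These are matches of letters, given as a description.

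The first comparison set HT against WT under vehicle, which asks how the mutation bears on the brain without treatment. Means lay close together: 27 of 34 subunit genes had a lower mean in HT vehicle, where 50.3% of all genes tested did, and the median log2 difference was -0.018. The subunit genes tended to vary together within groups (median r of 0.214 between pairs, described below). Counts of directions, here and in the comparisons below, are therefore not counts of separate observations. By role, a lower mean was found for 5 of 7 alpha ring genes, 6 of 7 beta ring genes, 6 of 6 ATPases, 8 of 11 other 19S subunits and 2 of 3 chaperones. None of these differences passed the test (limma, 0 of 34 genes; the background is 0.0% of the 17256 genes tested). At an unadjusted p under 0.05 there was 1 subunit gene, Psmd14, against 4.22% of all genes. The 95% interval of the difference lay within 1.2-fold in either direction for all 34 genes and for 62.8% of all genes tested. No subunit gene had groups that did not overlap, where 0.249% of all genes did. Without HT vehicle replicate 6, the library with the highest summed level, the median was -0.032, and without HT vehicle replicate 2 or WT vehicle replicate 6 it was -0.0095 or -0.012.

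Psmd14, on GRCm38 chromosome 2 from 61711694 to 61800376 (ENSMUSG00000026914), had the smallest p in that comparison. It read 2022 to 2232 in WT vehicle with a median of 2095, and 1879 to 2112 in HT vehicle with a median of 1952. In WT DCS it read 2092, 2087, 2099, 2094 and 2148, and in HT DCS 2071 to 2302 with a median of 2119. The lowest 4 of all 23 libraries were HT vehicle replicates 5, 2, 3 and 1, and the other HT vehicle libraries lay within the WT vehicle range. On the log2 scale, HT vehicle differed from WT vehicle by -0.089 ± 0.035 (SE), with an adjusted p of 0.999 (limma). Psmd7, which pairs with Psmd14 in the particle, had 2680.1 ± 74.1 (SD, n = 6) in HT vehicle and 2797 ± 96.8 (n = 6) in WT vehicle, a difference of -0.061 ± 0.03 (SE). Psmb7 had 3351 ± 162 and 3514 ± 57.0, a difference of -0.07 ± 0.035, and its HT vehicle values held 4 between 3233 and 3266 and 2 at 3501 and 3608. Of the genes whose mean was higher in HT vehicle, those with the smallest p were Psmd11 (difference 0.037), Psma3 (0.045, and 0.029 without HT vehicle replicate 2) and Psmb4 (0.014), each with an interval that spans 0. The Psmb4 difference was -0.00304 without HT vehicle replicate 6 and -0.0017 without WT vehicle replicate 1.

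Under DCS, HT and WT were compared next. Here 20 of 34 subunit genes had a lower mean in HT DCS (50.2% of all genes), with a median difference of -0.011. That median was -0.00019 without HT DCS replicate 5, -0.0014 without WT DCS replicate 1 and -0.019 without WT DCS replicate 3, and it turned to 0.0017 without HT DCS replicates 5 and 6. The alpha ring had 5 of 7 lower, the beta ring 5 of 7, the ATPases 4 of 6, the other 19S subunits 4 of 11 and the chaperones 2 of 3. Again 0 of 34 passed (limma; background 0.0%), and 2 genes, Psmd5 and Psma5, were at an unadjusted p under 0.05, against 7.55% of all genes. Intervals lay within 1.2-fold for 33 of 34 genes, Psmd5 being the exception, and for 59% of all genes. Ranges of the groups overlapped for every subunit gene, while 0.411% of all genes had none.

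Psmd5 encodes a chaperone that holds ATPase subunits of the base during assembly and is not part of the finished proteasome. The gene lies on GRCm38 chromosome 2 from 34849734 to 34874968, minus strand (ENSMUSG00000026869). It read 1348 to 1626 in WT vehicle with a median of 1438, and 1279 to 1581 in HT vehicle with a median of 1449.8. The WT DCS libraries read 1418, 1406, 1309, 1466 and 1605. The HT DCS libraries read 1363, 997.2, 1378, 1095, 1086 and 1280. Replicates 2, 5 and 4 of HT DCS were thus the lowest 3 of all 23 libraries, and replicates 1, 3 and 6 lay within the range of the other groups. The mean was 1199.9 ± 161 (SD, n = 6) in HT DCS, against 1441 ± 108 in the 5 WT DCS libraries. With vehicle it was 1436 ± 129 in HT and 1467 ± 116 in WT (both n = 6). The log2 difference of HT DCS from WT DCS was -0.27 ± 0.079 (SE; limma, adjusted p = 0.596), with a 95% interval from -0.43 to -0.11. From HT vehicle it was -0.27 ± 0.075 (limma, adjusted p = 0.893) and from WT vehicle -0.30 ± 0.075 (adjusted p = 0.452). These 3 comparisons share the HT DCS libraries, so they are not separate observations, and none passed the test. Without HT DCS replicates 5 and 6, the libraries with few hindbrain marker reads, the difference from WT DCS was -0.26 (limma, adjusted p = 0.998). Leaving out each library in turn gave -0.31 to -0.22. Among the cell type markers, the summed levels that moved most with Psmd5 over the 23 libraries, after subtracting group means, were those of oligodendrocyte precursors (r = -0.356) and choroid plexus (r = 0.349), and the part of either in the Psmd5 values was not tested. Markers of oligodendrocytes, the myelin-forming cells, had their lowest group median in HT DCS, as Psmd5 did: all 8 were measured and 0 were at 0 in every library. Their summed level had a median of 404260 in HT DCS (318070 to 493590), against 471980 in WT DCS (434370 to 510790), 458480 in HT vehicle (383800 to 484360) and 491820 in WT vehicle (445540 to 510690). The ranges overlapped, HT DCS replicate 6 was lowest of the 23 libraries, r with Psmd5 within groups was 0.306, and the part of these cells in the Psmd5 values was not tested. Hindbrain and blood markers also had their lowest group median in HT DCS. These medians were 1352 for hindbrain (1412.5 to 1741.8 in the other groups) and 7847 for blood (8043 to 10100). Their r with Psmd5 within groups was 0.123 and -0.0729, and their part was not tested either.

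Psma5, an alpha ring subunit, read 1859, 1842, 1796, 1815 and 1763 in WT DCS and 1681 to 1793 in HT DCS with a median of 1731. The groups overlapped between 1763 and 1793. The difference was -0.066 ± 0.03 (SE; limma, adjusted p = 0.647). Psmc5, an ATPase, had 3685 ± 163 (SD, n = 6) in HT DCS against 3852 ± 247 (n = 5) in WT DCS, and its difference of -0.063 was -0.034 without WT DCS replicate 1 and -0.031 without HT DCS replicates 5 and 6. The smallest p with a higher mean in HT DCS belonged to Psmd14 (0.031), Psma4 (0.027) and Psmc6 (0.03), all with intervals that span 0. Psmd14 was at 0.011 without HT DCS replicate 2, Psma4 at 0.018 without WT DCS replicate 5 and Psmc6 at 0.012 without HT DCS replicates 5 and 6.

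**Figure D3:**
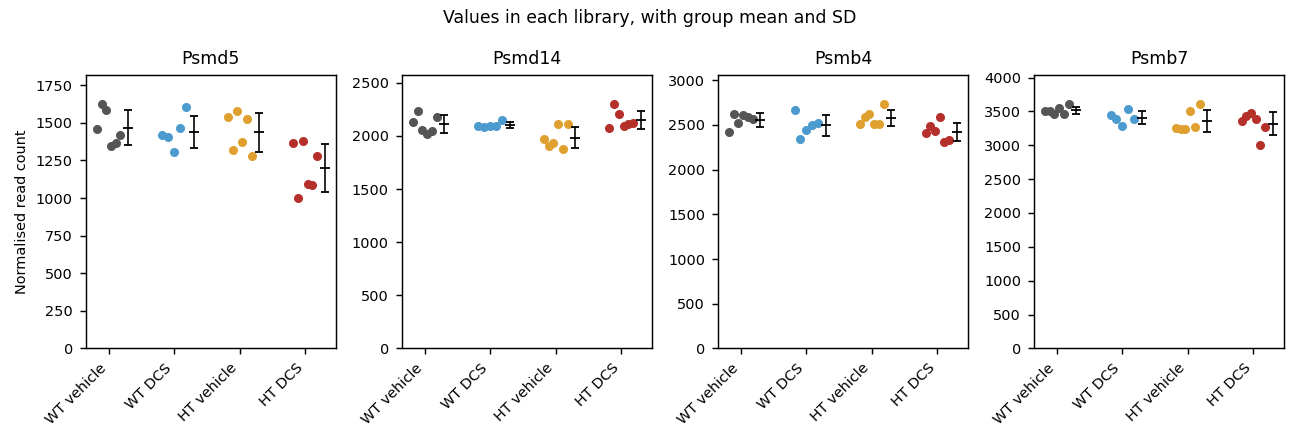
Normalised read counts in each library (points) with group mean and SD (bars) for Psmd5, Psmd14, Psmb4 and Psmb7, 4 of the 5 subunit genes at an unadjusted p under 0.05 in some comparison; each axis starts at 0. For Psmd5 the 3 HT DCS libraries at 997.2, 1086 and 1095 lie below every other library, and all 4 genes overlap between groups.

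DCS against vehicle in WT mice asked what the treatment does without the mutation. A lower mean under DCS was found for 22 of 34 subunit genes (49.7% of all genes) with a median of -0.012 (with 1 library left out, -0.025 without WT DCS replicate 1 to -0.0031 without WT DCS replicate 3), among them 6 of 7 beta ring genes, 4 of 7 alpha ring genes, 4 of 6 ATPases, 7 of 11 other 19S subunits and 1 of 3 chaperones. The count that passed was 0 of 34 (limma; background 0.0%), and 0 of 34 were at an unadjusted p under 0.05, against 2.88% of all genes. All 34 intervals lay within 1.2-fold, and 61.8% of those of all genes did. Groups that did not overlap were found for 0 of 34 subunit genes and 0.33% of all genes. Psmd7, the partner of the deubiquitinase, had 2689 ± 55.5 (SD, n = 5) under DCS and 2797 ± 96.8 (n = 6) under vehicle, a log2 difference of -0.057. The catalytic subunit Psmb6 read 2314, 2499, 2225, 2396 and 2326 under DCS and 2315 to 2598 under vehicle with a median of 2438, a difference of -0.059. Psmb7 differed by -0.044. On the higher side stood Psmd10 (0.071), Psmc2 (0.025) and Psmd2 (0.018). Psmd10 was at 0.045 or 0.043 without WT DCS replicate 1 or 5. Psmc2 was at 0.015 or 0.016 without WT vehicle replicate 1 or 3 and at 0.041 without replicate 4. Psmd2 was at 0.0097 without WT DCS replicate 1 and at 0.011 or 0.0091 without WT vehicle replicate 1 or 2. All 6 genes named for this comparison had an adjusted p that rounds to 1 (limma).

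In HT mice DCS was set against vehicle. Lower means were found for 19 of 34 subunit genes (50.7% of all genes) and the median difference was -0.0045. That median did not keep its direction: leaving out 1 library gave -0.016 (without HT vehicle replicate 2) to 0.0093 (without HT vehicle replicate 6), and it was also above 0 without HT vehicle replicate 4 (0.00061). By role, a lower mean was found for 6 of 7 alpha ring genes, 5 of 7 beta ring genes and 3 of 6 ATPases. It was found for 4 of 11 other 19S subunits and 1 of 3 chaperones. The role medians were small: -0.016, -0.014, -0.0024, 0.0018 and 0.046 in the same order. The test passed 0 of 34 (limma; background 0.0%). At an unadjusted p under 0.05 were Psmd5, Psmd14 and Psmb4, 3 of 34 or 8.82%, against 4.8% of all genes. The intervals of 33 of 34 genes, all but Psmd5, lay within 1.2-fold, as did 62% of those of all genes. No subunit gene had groups without overlap, against 0.127% of all genes.

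Psmd14 had a higher mean in HT DCS than in HT vehicle, by 0.12 ± 0.035 on the log2 scale (SE; limma, adjusted p = 0.915), from the values given above, so all 6 HT DCS libraries lay at or above 2071 and 4 of 6 HT vehicle libraries lay below that. That comparison and the one of HT vehicle with WT vehicle share the HT vehicle libraries, which are lowest in both. Leaving out each library in turn gave 0.096 to 0.13. Psmb4, a beta ring subunit with no active site, read 2508 to 2736 in HT vehicle with a median of 2555 and 2309.6 to 2583 in HT DCS with a median of 2421. Of the HT DCS libraries, replicate 4 alone lay above 2508. The difference was -0.091 ± 0.035 (limma, adjusted p = 0.973), and -0.059 without HT DCS replicates 5 and 6, its lowest libraries. Psmc6 and Psmc2 had higher means in HT DCS by 0.063 and 0.051, and Psma7 a lower one by -0.042, with intervals that span 0. Without HT vehicle replicate 1, Psmc6 was at 0.031 and Psmc2 at 0.034, and Psma7 was at -0.016 without HT vehicle replicate 6 and at -0.015 without HT DCS replicates 5 and 6.

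**Figure D4:**
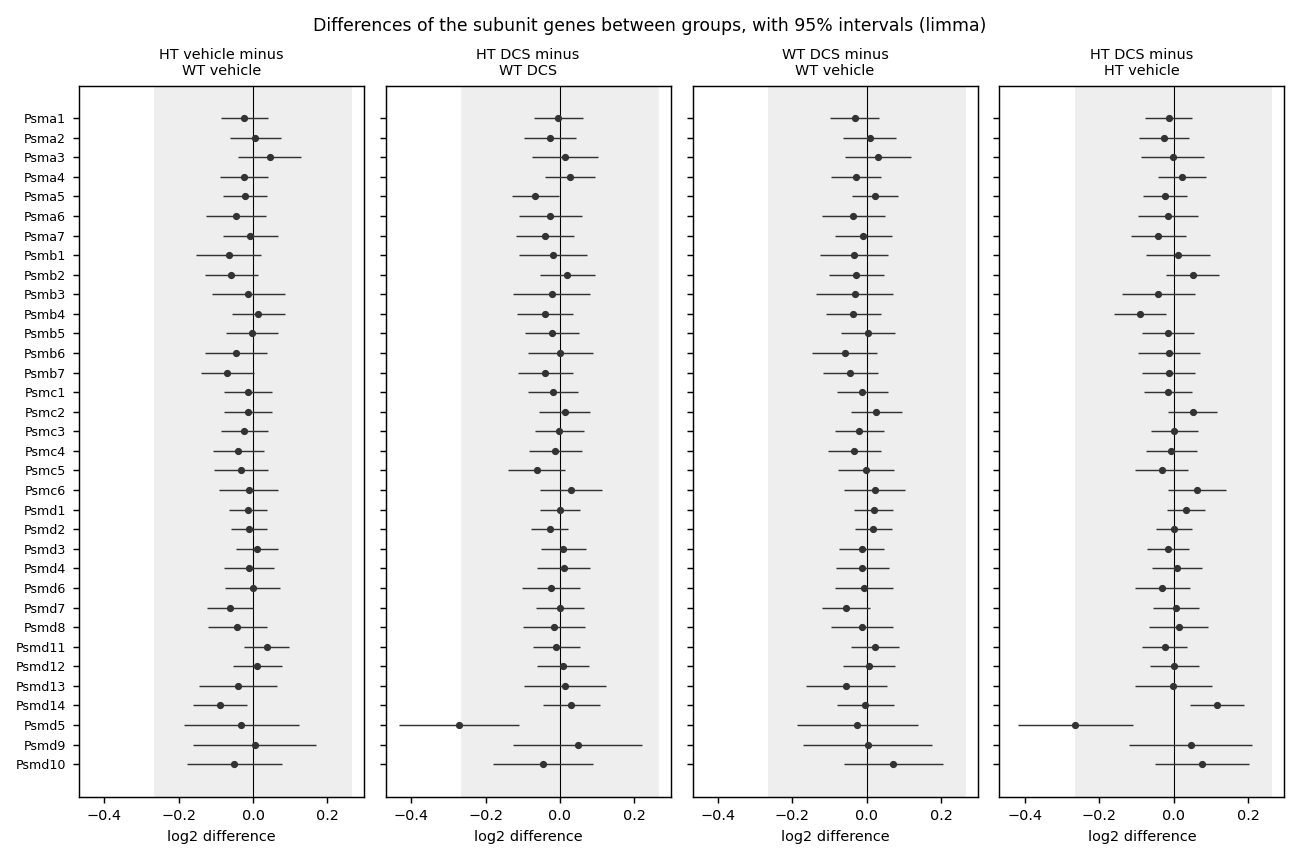
Log2 difference of each subunit gene with its 95% interval (limma) in 4 comparisons, the vertical line marking 0 and the grey band 1.2-fold in either direction. Nearly every interval lies within the band; Psmd5 leaves it in the comparisons with HT DCS, and 0 of 34 genes passed the adjusted test in each.

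The interaction, the DCS effect in HT minus that in WT, asked whether DCS acts differently in the 2 genotypes. The median over the subunit genes was 0.017, with 19 of 34 above 0 (49.3% of all genes), and leaving out 1 library gave 0.0038 (without HT vehicle replicate 2) to 0.028 (without HT vehicle replicate 6). None passed (limma, 0 of 34; background 0.0%), and Psmd14 and Psmd5 were at an unadjusted p under 0.05, 5.88% against 4.38% of all genes. For Psmd14 the interaction was 0.12 ± 0.051 (SE; limma, adjusted p = 0.984), with DCS effects of 0.12 in HT and -0.0042 in WT. For Psmd5 it was -0.24 ± 0.11 (adjusted p = 0.984), with effects of -0.27 in HT and -0.025 in WT. After Psmd14, the genes above 0 with the smallest p were Psmb2 (0.079) and Psmd7 (0.062). After Psmd5, those below 0 were Psmd11 (-0.047, and -0.031 without HT DCS replicate 1) and Psmb4 (-0.055, and -0.03 without WT DCS replicate 1). Intervals within 1.2-fold were found for 32 of 34 subunit genes and 45.9% of all genes.

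HT DCS was last set against WT vehicle, which puts the treated mutants beside the untreated WT mice. A lower mean was found for 25 of 34 subunit genes (50.5% of all genes), with a median of -0.025, among them 7 of 7 beta ring genes, 6 of 7 alpha ring genes, 4 of 6 ATPases, 7 of 11 other 19S subunits and 1 of 3 chaperones. Of the 34, 0 passed (limma; background 0.0%), and 3, or 8.82%, were at an unadjusted p under 0.05 against 7.18% of all genes: Psmd5, Psmb7 and Psmb4. Intervals lay within 1.2-fold for 33 of 34 genes and 61.2% of all genes, and 0 subunit genes had groups without overlap, against 0.313% of all genes. The trypsin-like subunit Psmb7 read 3461 to 3611 in WT vehicle with a median of 3503 and 2997 to 3477 in HT DCS with a median of 3372. In HT DCS only replicate 3 lay above the lowest WT vehicle library. The difference was -0.083 ± 0.035 (SE; limma, adjusted p = 0.669), and -0.054 without HT DCS replicate 5 and -0.042 without HT DCS replicates 5 and 6. The lowest Psmb7 value of all, 2997, is that of HT DCS replicate 5, the library with the lowest estimated depth. For Psmb4 the difference was -0.077 ± 0.035 (limma, adjusted p = 0.674), and -0.045 without the same 2 libraries. Without them the median over the 34 genes was -0.0093, and it was -0.016 or -0.015 without HT DCS replicate 1 or 5. The smallest p with a higher mean in HT DCS belonged to Psmc6 (0.051), Psmc2 (0.038) and Psma3 (0.042), with intervals that span 0. Psma3 was at 0.022 or 0.016 without HT DCS replicate 2 or 5 and at 0.067 without replicate 4, and Psmc6 at 0.034 without HT DCS replicates 5 and 6. Of the other catalytic subunits, Psmb5 averaged 2292 in WT vehicle and 2265 in HT DCS and Psmb6 2451 and 2354, and the ubiquitin receptor Psmd4 had 2758 and 2754.

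Genes that work with the proteasome were looked at from a list of 38 measured members in 7 groups: the immune subunits, activators and inhibitor, assembly factors, other proteins bound to the particle, shuttle factors, transcription control, and ubiquitin with its activating enzymes. In each of the 6 comparisons 0 of 38 passed (limma). At an unadjusted p under 0.05 the count was 1 (2.63%, against 4.22% of all genes) for HT against WT under vehicle and 4 (10.5% against 7.55%) under DCS. It was 0 (against 2.88%) for DCS in WT and 2 (5.26% against 4.8%) for DCS in HT. For the interaction it was 3 (7.89% against 4.38%) and for HT DCS against WT vehicle 0 (against 7.18%). Under vehicle the gene was Psmf1, an inhibitor of the core particle, with 1109.6 ± 56.0 (SD, n = 6) in HT and 1189 ± 64.1 (n = 6) in WT. Psme4, which encodes the activator PA200, and Adrm1, a ubiquitin receptor, followed with differences of -0.07 and -0.057. Under DCS the smallest p belonged to Nfe2l1, the transcription factor that raises subunit genes when the proteasome is inhibited: 9312 ± 385 (SD, n = 6) in HT and 9895 ± 405 (n = 5) in WT, a log2 difference of -0.088 ± 0.032 (SE; limma, adjusted p = 0.613). Psmg3, a chaperone of alpha ring assembly, had 256 ± 23.3 and 291 ± 36.7 in the same groups, and Ecpas, a scaffold that binds the proteasome, 4494 ± 314 and 4132 ± 243. For DCS in HT mice the smallest p belonged to Rad23b, a shuttle that carries ubiquitin-tagged proteins to the proteasome, with 6327 ± 315 under DCS and 5834 ± 353 under vehicle. For DCS in WT mice it was Psme1, an activator subunit, with 871.4 ± 50.9 under DCS and 943.7 ± 70.9 under vehicle. In the interaction, Psmg3 (-0.25) and Rad23b (0.14) were among the genes with the smallest p. The immune subunits were low, with means of 15.3 for Psmb9 and 39.8 for Psmb8, and 557.4 for Psmb10. Paaf1, also on the list, was not found among the symbols of the deposited genes and so has no values here.

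Within groups, the subunit genes tended to vary together. Pearson r was taken between the deviations of 2 genes from their group means, across 23 libraries. Over the 561 pairs it had a median of 0.214 and a mean of 0.21, and it was above 0 in 77% of them. Its mean over all pairs of all genes tested was 0.000344, and the share above 0 was not computed for these. All genes tested differ from the subunit genes in level and transcript length, so that mean does not compare like genes. Pairs within the 20S rings had a median r of 0.42 (91 pairs), pairs within the 19S particle 0.2 (136 pairs), and pairs of a ring gene with a 19S gene 0.223 (238 pairs). The closest pairs were Psmc4 with Psmb3 (r = 0.846), Psmb1 with Psmb7 (0.826) and Psma6 with Psmb7 (0.794). The most opposed were Psmd2 with Psmb6 (-0.68) and Psmd12 with Psmd10 (-0.555). Against the mean of the other 33 genes, Psmb7 (0.826), Psmd8 (0.798) and Psma7 (0.797) were closest. Below 0 were Psmd11 (-0.302), Psmd5 (-0.242), Psma3 (-0.11) and Psmd2 (-0.0875). Their transcripts are long for the set, at 2848, 4397, 2846 and 2961 bases. Psmd1 (3112 bases) and Psma2 (2911) are as long and had r of 0.163 and 0.53. All pairs are read from the same 23 libraries, which differ from each other in depth and marker levels. HT vehicle replicate 6 weighs on them: without it the median over all pairs was 0.141, and 0.297 within the rings. Without it and HT DCS replicate 5 these medians were 0.148 and 0.254.

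The subunit genes were next set beside a gradient of transcript length across all genes. The members are short, with a median transcript of 1540 bases against 2925 for all genes tested. In each library the deviations of all genes averaging 100 or more were fitted on log2 transcript length, and the slope was set beside the mean deviation of the 34 genes. Libraries in which short transcripts stood higher tended to have higher subunit genes (r = -0.776 over 23 libraries, and -0.601 without HT vehicle replicate 6 and HT DCS replicate 3, those with the farthest slopes). HT vehicle replicate 6 had the highest mean deviation, 0.071, with a slope of -0.049 per doubling of length. HT DCS replicate 5 had the highest slope, 0.041, with a mean deviation of -0.038. The 34 genes are short and are themselves among the genes fitted, so a negative r is partly built in. Whether other sets of short genes give a like r was not computed. The part of this length gradient in the values of the subunit genes was not tested. For summed markers of the 11 cell types and tissues, r with the subunit genes ran from -0.367 for endothelium to 0.0977 for meningeal fibroblasts. These values and the r with the slope are not like measures.

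**Figure D5:**
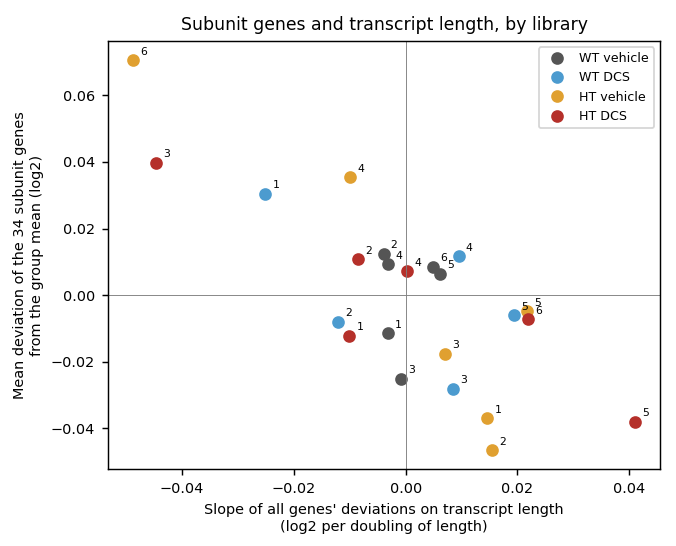
Mean log2 deviation of the 34 subunit genes from the group mean (vertical) against the slope of all genes' deviations on transcript length (horizontal, log2 per doubling of length) in 23 libraries, numbered by replicate and coloured by group. The points run from HT vehicle replicate 6 at the upper left (0.071) to HT DCS replicate 5 at the lower right (-0.038).

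Outside the list, the genes whose deviations lay closest to the mean of the subunit genes over the 23 libraries were Gde1, a phosphodiesterase gene (r = 0.872), Vdac3, a channel of the outer mitochondrial membrane (0.862), the respiratory chain gene Cox6a1 (0.841), the ATP synthase gene Atp5f1 (0.839) and Arpc2, a subunit of the actin-nucleating Arp complex (0.839). Their transcripts span 571 to 1604 bases. The most opposed were Vps13c (r = -0.887), Vps13b (-0.863) and Uprt (-0.859). The Vps13 genes have transcripts of 11527 and 13757 bases. That of Uprt has 2304 bases, below the median of 2925 for all genes tested. All the genes named here were chosen for their r, so the values are a description.

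Reads can be split between near-identical sequences. Of the 34 genes, 11 had a transcript elsewhere with at least 95% identity over at least 200 bases, 19 in all, and 6 of these, for 5 genes, were in the table. Psma3 shares 665 identical bases with the pseudogene Gm13835, which read 616.6 on average, and their deviations ran against each other across the 23 libraries (r = -0.628). The SD of log2 Psma3 around the group means was 0.071 alone and 0.044 for the sum of both. Psmd13 and Sirt3, a neighbour that overlaps it on the opposite strand, share 329 bases and also ran against each other (r = -0.577): the SD was 0.094 for Psmd13 and 0.047 for the sum. For Psmd11 and its copy A730017L22Rik the SD was 0.039 alone and 0.041 for the sum (r = 0.14). Psma3 and Psmd13 values are uncertain, and whether the counting used strand is not given in the sources used here. Psmb7 shares 255 bases with its neighbour Nek6 (r = 0.171). Neither Psmd5 nor Psmd14 had such a copy.

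The subunit genes lie on 15 chromosomes, most on chromosome 11 with 6 and chromosome 2 with 5. The members nearest to each other are Psmd4 and Psmb4, 145.7 kb apart on chromosome 3, and Psmd3 and Psmb3, 969.1 kb apart on chromosome 11.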

How the data were processed

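The authors deposited 1 table of 18848 genes by 23 libraries with decimal values, used here as a signal: reads per gene after scaling. The library kit was a stranded one for mRNA, per the labels' protocols. GRCm38, DESeq2 1.26.0, R 3.6.2 and Salmon 1.1.0 appear in the submitters' processing notes without a role. The annotation and how reads were counted is not given in the sources used here. Scaling makes totals alike, so a change in total RNA cannot be seen. Of the low values (up to 5 steps), 55.65% to 76.87% per library were whole multiples of a step to within 0.15, so whole reads were not recovered. No pair of libraries held the same values (0 pairs), and each was counted as 1 sample.

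Values were tested as log2(value + 1) with limma 3.58.1 in R 4.3.3: all 23 libraries in 1 model with a coefficient for each group, and moderated variances (trend, robust). P-values were two-sided and adjusted by Benjamini-Hochberg in each of 6 contrasts, across 17256 genes averaging 10 or more, at a threshold of 0.05. On this scale fold changes of low genes come out too small. The script was tested on simulated data. Symbols, positions and transcript lengths (longest coding transcript, principal isoforms first) came from GENCODE on GRCm38, copies from blastn 2.17.0, and promoters from RefSeq on GRCm38.p6.

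Named are, in each contrast, the 3 subunit genes with the smallest p in each direction, the highest and lowest per kilobase of each role, the 3 most and the 3 least variable, the catalytic subunits, Psmd4 and Psmd14, up to 4 pathway genes per contrast (1 result is not reported here) and the 5 outside genes most like the members. The 3 most opposed genes and the genes shown as examples of levels, pairs and near copies were named after their values were seen. The members and lists were chosen with earlier results of these data known. Alternatives were other pseudocounts, filters, scalings and moderation, the groups compared alone, the replicate number as a block, array weights and leaving out each library. A batch term for replicate numbers 1 to 3 and 4 to 6, and leaving out HT DCS replicates 5 and 6 together, were chosen after seeing the data.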

Additional observations from a re-analysis of the deposited data

Results flagged for a closer look

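In 6 of the 136 sets of libraries formed by a subunit gene and a group, the highest or lowest library stood apart by Dixon's criterion, which chance meets in about 1 in 20 groups. Psmb3 and Psmd8 stood highest in HT vehicle replicate 6, at 1889.4 and 3326 normalised reads against 1670.02 and 2970.4 in the next library. That library had the lowest slope on transcript length, -0.049 per doubling, and its part in these values was not tested. Psmb3 also stood highest in WT DCS replicate 1, at 1739.6 against 1630.3. In WT DCS replicate 5, Psmd14 stood highest at 2148 against 2099, and Psma1 at 2223 against 2142. Psma5 was lowest in HT vehicle replicate 1, at 1665 against 1754.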

How the results depend on the processing

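Under 36 alternative settings (35 for the interaction, for which a fit of only the groups compared is the reported one) 0 subunit genes passed in any comparison, and the smallest adjusted p of a subunit gene was 0.141 (limma), for Psmd5 in HT DCS against WT vehicle without HT DCS replicate 3. The median of all genes moved by at most 0.0084 (equal library totals, HT DCS against WT vehicle). The medians over the subunit genes are small and 2 of them turned direction: HT DCS against HT vehicle (-0.0045) was 0.007 with array weights, 0.0034 without HT DCS replicates 5 and 6, 0.00061 without HT vehicle replicate 4 and 0.0093 without HT vehicle replicate 6, and HT DCS against WT DCS (-0.011) was 0.0017 without HT DCS replicates 5 and 6. The other 4 medians kept their direction. Of the differences of named genes, 2 turned direction, both for Psmb4 in HT vehicle against WT vehicle (0.014): -0.00304 without HT vehicle replicate 6 and -0.0017 without WT vehicle replicate 1, with 0.022 the highest value when 1 library was left out. Counts over all genes, 0 as reported, moved in few settings. Leaving out 1 library gave 0 to 1 genes in HT DCS against HT vehicle, against WT DCS and against WT vehicle, the 1 being reached without HT DCS replicate 4 or HT vehicle replicate 1 in the first and without HT vehicle replicate 6 in the others. With the replicate number as a block, 11 genes passed in HT DCS against WT vehicle with the numbers of the titles and 2 with those of the descriptions, in which the fifth WT DCS library has number 6. Whether the numbers pair the samples cannot be decided from these values. Of 33 pairs of libraries with the same number, 5 (titles) or 4 (descriptions) had deviations correlated above 0.1. The median r was 0.0149 for the same number and -0.00254 for different numbers, with either numbering. Of the 23 libraries, 7 (titles) or 6 (descriptions) were on average closest to libraries of their own number. The block changed no other call. For the median subunit gene the 95% interval reached 0.0711 or 0.0746 to either side of the difference on the log2 scale (0.103 for the interaction). This is before adjustment over all genes, so a difference of that size need not pass the test.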
